A study of Homo sapiens with 60 samples.

Results

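The metallothioneins and the genes that handle zinc beside them were followed in SW1783, a human astrocytoma cell line, after 24 h with extracts of herbal medicines. The 9 genes were chosen by name from the 60675 genes of the deposited table: 7 metallothioneins (MT2A, MT1E, MT1X, MT1F, MT1G, MT1M and MT1A), the zinc exporter SLC30A1 and the zinc-sensing transcription factor MTF1. Of the 9, 6 passed the filter on low counts and were tested, and MT1G, MT1M and MT1A did not pass.

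Metallothioneins are small cysteine-rich proteins of the cytosol that bind zinc, copper and cadmium. MTF1 binds free zinc and then acts on metal response elements, short sequence motifs in the promoters of metallothionein genes and of SLC30A1, whose product moves zinc out of the cell across the plasma membrane. Metallothionein genes are also known to respond to oxidative stress and to glucocorticoids, and in the brain astrocytes are a main site of their expression.

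The cells received 1 of 8 extracts at a low, medium or high dose, or dimethyl sulfoxide alone as the vehicle. Water extracts of the decoctions Yijin-tang and Soshiho-tang were given at 20, 100 and 500 µg/mL. So were ethanol extracts of 3 single herbs, Zizyphi Semen, Longan Arillus and Liriopis seu Ophiopogonis Tuber. Ethanol extracts of the other 3 herbs were given at lower doses, which were 12.4, 62 and 310 µg/mL for Schisandrae Fructus, 6.4, 32 and 160 µg/mL for Aucklandiae Radix, and for Polygalae Radix 1.2, 6 and 30 µg/mL. Per the series' design text, an extract whose IC20 lay under 500 µg/mL had that concentration as its high dose. Soshiho-tang had 2 libraries per dose, Aucklandiae Radix and Polygalae Radix had 1, and every other group, vehicle included, had 3. Sources differ on the vehicle's concentration, which the sample labels put at 0.1%.

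Total counts lay between 18.73 and 35.52 M per library. Library names place the vehicle libraries in a set of their own (18.73 to 20.47 M). They pair Yijin-tang with Soshiho-tang, Schisandrae Fructus with Liriopis seu Ophiopogonis Tuber, Zizyphi Semen with Longan Arillus, and the extracts of 1 library per dose with each other. Extract and library set therefore cannot be told apart against the vehicle, and the low dose of the same extract is the comparison within a set. The labels do not say if libraries of 1 group came from separate cultures, so the p-values speak of the spread among libraries, which may be technical. The defining astrocyte markers GFAP, S100B, AQP4 and ALDH1L1 stayed at or below 0.326 CPM (the gene's count divided by the library's total in M) in every library, while SLC1A3 averaged 30.4 and SOX9 82.4 CPM in the vehicle. Among markers of other cell types, MOG, CD3E, AIF1, TYR and CDH1 stayed at or below 0.144 CPM, and CD68 (77.5 to 277 CPM), SNAP25 (11.5 to 35.99), MBP (4.18 to 12.4) and PTPRC (1.20 to 11.5) were present in all. In bulk RNA, fewer transcripts per cell and fewer cells that express a gene cannot be told apart.

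MT2A carried 88.8% of the counts of the MT1 and MT2 genes over all libraries. MT1X carried 5.19% and MT1E 4.95%, and the other named metallothioneins were near the limit of detection. These are shares of counts, not of counts per length. The median annotated transcript length was 683.5 bases for MT2A, 704 for MT1E and 494 for MT1X. MT1F reached 0.630 CPM at most (16 counts), MT1A 0.311, MT1M 0.212 and MT1G 0.109 CPM. MT1G had no count in 38 of the 60 libraries, MT1M in 11 and MT1A in 2, and a count of 0 allows a level of up to 3 counts in that library. The 7 genes lie on chromosome 16 within 75998 bases (GRCh38, GENCODE release 29), MT2A at chr16:56608199-56609497 on the plus strand. SLC30A1 at chr1:211571568-211578742 and MTF1 at chr1:37809567-37859620 are both on the minus strand of chromosome 1.

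The coding sequences show how close the expressed family members are, which bears on how the counting step divides reads between them. Each is 186 bases long, and capitals mark the bases of MT1E and MT1X that differ from MT2A (sequences of GENCODE release 29 transcripts, 5′ to 3′).
MT2A: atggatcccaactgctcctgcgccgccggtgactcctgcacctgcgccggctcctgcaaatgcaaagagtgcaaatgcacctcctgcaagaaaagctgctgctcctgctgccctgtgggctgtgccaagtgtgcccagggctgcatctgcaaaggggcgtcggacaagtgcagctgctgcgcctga
MT1E: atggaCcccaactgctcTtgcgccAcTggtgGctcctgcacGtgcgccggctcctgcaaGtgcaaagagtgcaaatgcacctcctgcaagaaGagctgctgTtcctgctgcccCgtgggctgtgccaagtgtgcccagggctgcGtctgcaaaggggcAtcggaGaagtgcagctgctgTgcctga
MT1X: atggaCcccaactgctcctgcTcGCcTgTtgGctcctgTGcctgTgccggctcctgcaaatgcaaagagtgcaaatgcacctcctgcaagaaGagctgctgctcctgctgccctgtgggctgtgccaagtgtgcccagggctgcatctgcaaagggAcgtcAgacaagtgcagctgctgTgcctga
MT1E and MT1X each differed from MT2A at 14 bases (92.5% identity) and from each other by more (90.9% identity). Over whole annotated transcripts, which include the more divergent untranslated ends, no stretch of 100 bases was shared between the named metallothioneins. Of the 50-base stretches, 1.58% of MT2A, 7.10% of MT1E and 3.37% of MT1X also occurred in another gene of the family. Expected counts that were not whole numbers, a sign of divided reads, made up 13.3% of the values of MT2A, 21.7% of MT1X and 0% of MT1E. The family was therefore also summed before testing, and values of single MT1 genes are less certain than the sum.

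The promoters of MT2A, MT1X and SLC30A1 are shown because they are the places where MTF1 is known to act. Each runs over the 250 bases before the RefSeq start on the gene's strand (GRCh38.p14), and capitals mark matches to the core of the metal response element, searched as TGCACNC and TGCGCNC on both strands.
MT2A, chr16:56608334-56608583, plus strand: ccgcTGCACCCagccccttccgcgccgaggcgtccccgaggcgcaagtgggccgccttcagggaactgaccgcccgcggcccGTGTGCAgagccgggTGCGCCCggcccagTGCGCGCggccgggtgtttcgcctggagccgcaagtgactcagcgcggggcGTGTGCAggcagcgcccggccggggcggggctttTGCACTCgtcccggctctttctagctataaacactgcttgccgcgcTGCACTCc
MT1X, chr16:56682220-56682469, plus strand: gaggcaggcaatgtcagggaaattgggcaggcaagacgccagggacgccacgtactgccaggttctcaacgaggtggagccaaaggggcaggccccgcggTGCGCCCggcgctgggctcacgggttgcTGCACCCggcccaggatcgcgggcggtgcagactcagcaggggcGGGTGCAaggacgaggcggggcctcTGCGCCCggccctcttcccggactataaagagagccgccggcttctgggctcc
SLC30A1, chr1:211579162-211579411, minus strand: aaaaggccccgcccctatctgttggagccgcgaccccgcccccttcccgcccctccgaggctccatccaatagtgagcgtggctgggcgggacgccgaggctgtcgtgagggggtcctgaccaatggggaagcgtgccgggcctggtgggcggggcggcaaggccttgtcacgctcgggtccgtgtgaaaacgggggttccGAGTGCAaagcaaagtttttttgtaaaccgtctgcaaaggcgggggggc
MT2A held 7 matches, 5 of them on its own strand, MT1X held 4 and SLC30A1 held 1. Among 35116 promoters of the same length, 24.829% held at least 1, 0.37% at least 4 and 0.031% at least 7. The MTF1 promoter held none. The antioxidant response element core, searched as TGACNNNGC on both strands, matched once in MT2A, MT1X and SLC30A1, did not overlap a metal response element there, and matched in 10.91% of all promoters. Promoters of 4 of the 9 genes were matched in the table.

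Against the low dose of the same extract, calls among the members came with the high doses. A gene was called when its adjusted p (edgeR's quasi-likelihood test, Benjamini-Hochberg over all 17851 genes tested) was under 0.05. Where groups are said not to overlap, that is a description only, since groups of so few libraries can separate by chance. The share of all genes that separate in this way was not counted. With 500 µg/mL of Yijin-tang 1 of the 6 members tested was called and rose, where 7% of all genes were called. For the high dose of Soshiho-tang 2 rose, with 18.6% of all genes called, and for that of Schisandrae Fructus 1 rose and 2 fell, with 45.9% called. Longan Arillus at its high dose had 2 that fell, with 0.936% called. For Zizyphi Semen 0 members were called (edgeR; 0 had an unadjusted p under 0.05 and DESeq2 called 0), with 5.78% of all genes called. For Liriopis seu Ophiopogonis Tuber 0 members and 0% of genes were called (edgeR; 1 member and 463 genes had an unadjusted p under 0.05, and DESeq2 called 0 members). Of 36 member tests at the medium doses 0 passed (edgeR; 4 had an unadjusted p under 0.05 and DESeq2 called 0), with 0.0224% of genes called for Yijin-tang, 0.0112% for Soshiho-tang, 0.0392% for Schisandrae Fructus and 0% for Longan Arillus, Zizyphi Semen and Liriopis seu Ophiopogonis Tuber. The median log2 fold change of the 6 members at the high doses ran from -0.39 for Schisandrae Fructus to 0.24 for Soshiho-tang, and that of all genes tested was 0 in each.

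Against the vehicle, 2 of the 6 members were called at the high dose of Yijin-tang (1 rose, 1 fell; 19.8% of all genes called), 2 at that of Soshiho-tang (both rose; 30.3%), 1 at that of Liriopis seu Ophiopogonis Tuber (fell; 4.09%), 3 at that of Schisandrae Fructus (1 rose, 2 fell; 50.1%), 3 at that of Longan Arillus (all fell; 15.9%) and 1 at that of Zizyphi Semen (fell; 13.3%). Medium doses had 3 called for Yijin-tang (14.2% of all genes), 1 for Soshiho-tang (4.2%), 1 for Liriopis seu Ophiopogonis Tuber (13%), 2 for Schisandrae Fructus (5.39%), 3 for Longan Arillus (25.2%) and 2 for Zizyphi Semen (14.4%). At the low doses 1 was called for Longan Arillus (5.41%) and 3 for Zizyphi Semen (18.5%). edgeR called 0 at the low doses of Yijin-tang (2.62%), Soshiho-tang (1.91%), Liriopis seu Ophiopogonis Tuber (6.59%) and Schisandrae Fructus (1.08%), where 9 of 24 member tests had an unadjusted p under 0.05 and DESeq2 called 2. These comparisons share the vehicle libraries with each other and the treated libraries with the comparisons above. Most of these calls were lower SLC30A1 and lower MTF1.

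**Figure D1:**
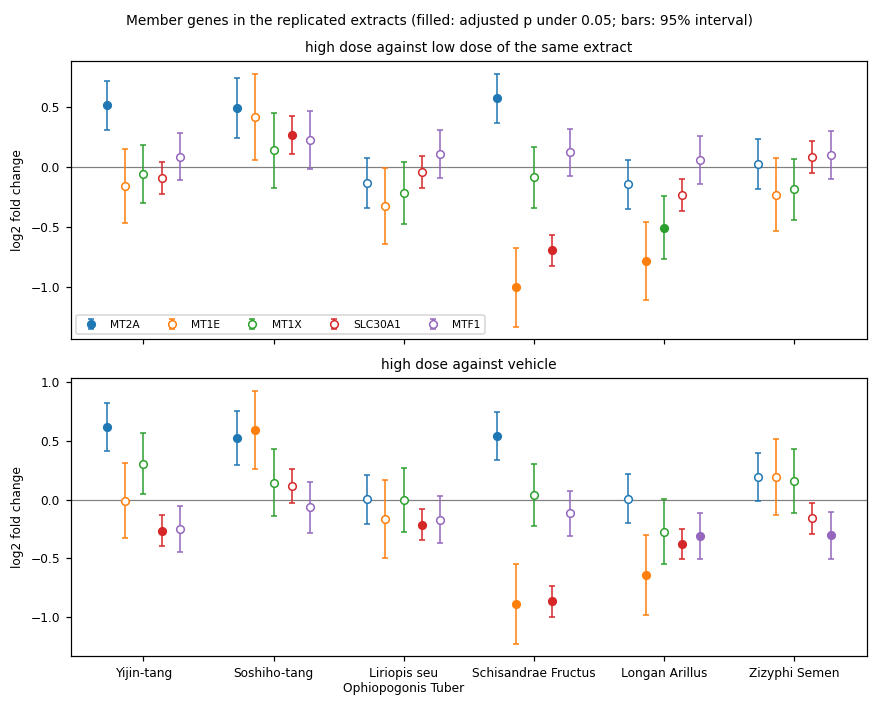
Log2 fold change of 5 member genes at the high dose of the 6 extracts with replicates, against the low dose of the same extract (upper panel) and against the vehicle (lower panel). Points are edgeR estimates with 95% intervals, and filled points passed at an adjusted p under 0.05; MT2A lies above 0.4 in both panels for Yijin-tang, Soshiho-tang and Schisandrae Fructus, where its calls stand.

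MT2A, the most abundant metallothionein, was higher at the high dose of 3 of the 6 replicated extracts. In Yijin-tang it had 169, 185 and 185 CPM at 500 µg/mL, against 130.3, 127 and 115 CPM at 20 µg/mL. Every high-dose library lay above every low-dose library, and the medium dose lay between them (154, 139.8 and 144 CPM). The log2 fold change of high over low was 0.51 ± 0.10 (SE, n = 3 each; edgeR adjusted p = 4.17e-04), and that of medium over low was 0.21 ± 0.10 and did not pass (edgeR adjusted p = 0.914).

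Under Schisandrae Fructus at its high dose MT2A had 149, 171 and 187 CPM, against 125, 101 and 119 CPM at the low dose. The groups did not overlap, and the medium dose (113, 113 and 119 CPM) lay within the range of the low dose. The log2 fold change of high over low was 0.57 ± 0.10 (n = 3 each; edgeR adjusted p = 7.66e-06). In Soshiho-tang MT2A had 173 and 158 CPM at the high dose, against 114 and 122 CPM at the low dose, again without overlap. Its log2 fold change was 0.49 ± 0.12 (n = 2 each; edgeR adjusted p = 0.0029), and without the high-dose replicate 2 it was 0.42 and did not pass (edgeR adjusted p = 0.0551). In the other 3 extracts MT2A overlapped between high and low dose, with log2 fold changes of -0.13 for Liriopis seu Ophiopogonis Tuber, -0.14 for Longan Arillus and 0.02 for Zizyphi Semen.

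**Figure D2:**
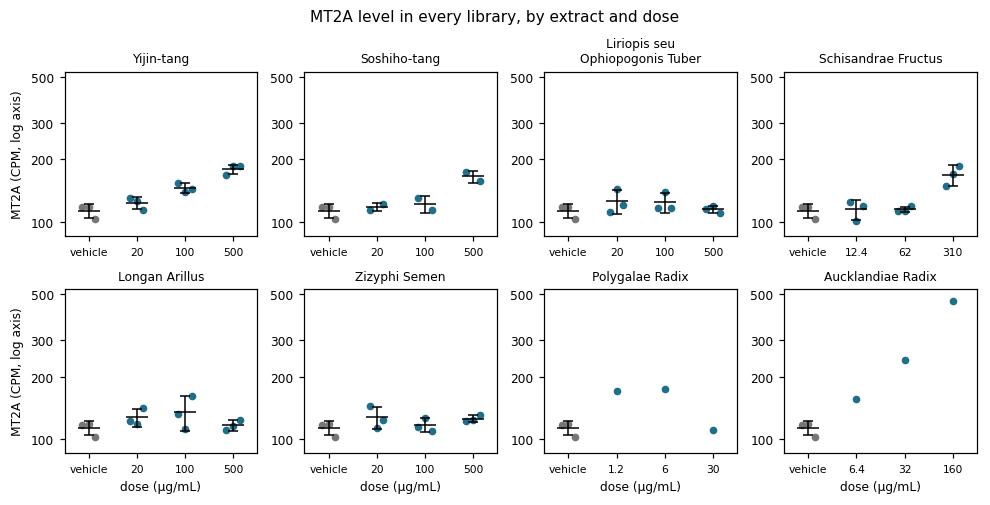
MT2A in CPM (log axis) in every library, 1 panel per extract, with the vehicle and then the doses in µg/mL from low to high; black bars are means ± SD where a group has 2 or 3 libraries. The highest values are those of Aucklandiae Radix at 32 and 160 µg/mL (241 and 461 CPM), and the high doses of Yijin-tang, Soshiho-tang and Schisandrae Fructus stand above their own lower doses.

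Against the vehicle (118, 118 and 103 CPM), the same 3 high doses again had higher MT2A. The log2 fold changes were 0.62 ± 0.10 for Yijin-tang, 0.52 ± 0.11 for Soshiho-tang and 0.54 ± 0.10 for Schisandrae Fructus, all called, and no vehicle library reached any library of these groups. The medium doses of Yijin-tang (0.32) and Longan Arillus (0.28) were also called. Each of these calls ended when any 1 of 4 of the 6 libraries compared was left out, also where the value rose. Omitting vehicle replicate 2 or 3 gave 0.36 or 0.26 for Yijin-tang, and omitting Yijin-tang replicate 1 or 2 gave 0.27 or 0.33, none of them called (edgeR adjusted p from 0.0551 to 0.178). For Longan Arillus it was 0.30, 0.32 and 0.22 without vehicle replicates 1, 2 and 3 and 0.12 without its own replicate 3, none of them called (edgeR adjusted p from 0.0507 to 0.563). That library, Longan Arillus medium dose replicate 3, held the highest MT2A of its group (162 CPM, against 132 and 112 in the others) and the lowest SLC30A1 (43.0 CPM) and MTF1 (22.1 CPM).

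MT2A transcripts are short, and other genes of under 1000 bases were set beside it as a measure of how length moved with each comparison. The set held the 3628 tested genes of that length whose mean log2 CPM was at least 0. Against the low dose, their median log2 fold changes were 0 in Yijin-tang, Soshiho-tang and Schisandrae Fructus at the high dose. Of these genes, 1.63%, 4.08% and 5.87% lay at or above MT2A, in the same order. Against the vehicle their medians were 0.03, 0.06 and 0.03 for the same groups, while those of longer genes were -0.03, -0.02 and -0.04. There 2.54%, 5.49% and 8.54% of the short genes lay at or above MT2A. At the medium doses called against the vehicle these shares were 8.54% for Yijin-tang and 17.7% for Longan Arillus. With offsets for transcript length and GC content, an alternative added after the data had been seen, MT2A kept its calls against the low dose (0.50, 0.49 and 0.52) and its calls at the high doses against the vehicle, and lost those against the vehicle at the medium doses of Yijin-tang (0.21; edgeR adjusted p = 0.0843) and Longan Arillus (0.14; edgeR adjusted p = 0.201).

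MT1E, a metallothionein isoform, moved in the opposite direction to MT2A in Schisandrae Fructus. It had 3.54, 3.68 and 3.68 CPM at the high dose, against 8.28, 5.75 and 8.16 CPM at the low dose. The groups did not overlap, and the log2 fold change was -1.001 ± 0.16 (n = 3 each; edgeR adjusted p = 1.49e-06). Against the vehicle (7.01, 6.30 and 6.35 CPM) it was -0.88 ± 0.17 and was called. The medium dose (6.44, 5.89 and 5.03 CPM) lay between, at -0.32 ± 0.15 against the low dose, and was not called.

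MT1E and MT1X, both zinc-binding isoforms, fell together at the high dose of Longan Arillus. MT1E had 3.50, 5.22 and 4.18 CPM, against 6.88, 7.76 and 7.29 CPM at the low dose, without overlap (log2 fold change -0.78 ± 0.16; edgeR adjusted p = 0.00534). MT1X had 5.38, 5.37 and 6.33 CPM, against 8.01, 7.94 and 8.01 CPM, also without overlap (-0.51 ± 0.13; edgeR adjusted p = 0.0405). A fit of only the 2 groups called neither MT1E (-0.77; edgeR adjusted p = 0.0853) nor MT1X (-0.50; edgeR adjusted p = 0.124). The MT1E call ended without the high-dose replicate 1 (-0.67; edgeR adjusted p = 0.066). The MT1X call ended when any 1 of the 6 libraries was left out, with values of -0.48, -0.47 and -0.58 without high-dose replicates 1, 2 and 3 and of -0.50, -0.51 and -0.51 without low-dose replicates 1, 2 and 3 (edgeR adjusted p from 0.0575 to 0.161). Against the vehicle the high dose of Longan Arillus was lower in MT1E (-0.64 ± 0.17, called), while MT1X (-0.27) was not called.

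MT1E was higher against the vehicle at the high dose of Soshiho-tang (10.4 and 9.83 CPM, against 7.01, 6.30 and 6.35 CPM), at a log2 fold change of 0.59 ± 0.16. Against the low dose of Soshiho-tang (6.68 and 8.34 CPM) the groups did not overlap and the value was 0.42 ± 0.18, which was not called (edgeR adjusted p = 0.0977). A fit of only these 2 groups called it (0.40; edgeR adjusted p = 0.0115), as did the fit without the low-count filter (0.42; edgeR adjusted p = 0.021). The low dose of Zizyphi Semen was also called higher than the vehicle in MT1E (9.72, 8.26 and 8.40 CPM; 0.42). That call ended when vehicle replicate 1 (0.47), 2 (0.40) or 3 (0.41) or Zizyphi Semen replicate 1 (0.34) was omitted, and with the length and GC offsets (0.36; edgeR adjusted p = 0.0742). MT1X was not called against the vehicle by the edgeR fit of all groups in any of the 18 comparisons (log2 fold changes from -0.27 to 0.37). It was called higher in a fit of only the 2 groups, and also without the low-count filter, for the high and low doses of Yijin-tang (0.32 and 0.38 with 2 groups) and for Liriopis seu Ophiopogonis Tuber at its medium dose (0.33). Without the filter it was also called for the medium dose of Longan Arillus (0.32) and the low dose of Zizyphi Semen (0.37), the second of which DESeq2 called too (0.35). With 1 library omitted, MT1X was called for Longan Arillus medium without its replicate 2 (0.43) and for Zizyphi Semen low without its replicate 3 (0.48).

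**Figure D3:**
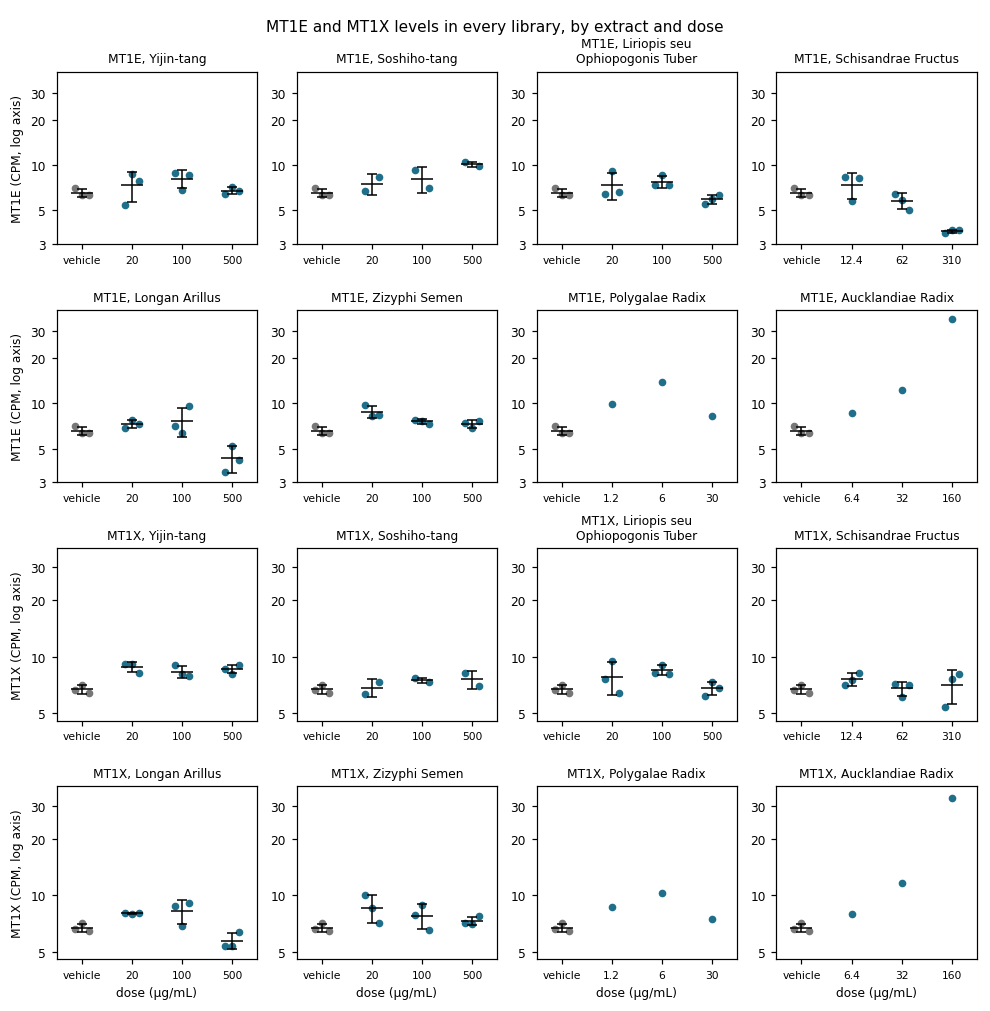
MT1E (upper 8 panels) and MT1X (lower 8 panels) in CPM on a log axis, in every library, by extract, with the vehicle first and doses in µg/mL from low to high; black bars are means ± SD where a group has 2 or 3 libraries. Both genes reach their highest values at 160 µg/mL of Aucklandiae Radix (36.3 and 33.1 CPM), and MT1E is lowest at the high doses of Schisandrae Fructus and Longan Arillus.

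MT1F stayed between 0.0386 and 0.630 CPM and was not called by the edgeR fit of all groups in any of the 30 replicated comparisons. At the high dose of Yijin-tang it had 0.292, 0.159 and 0.198 CPM, against 0.573, 0.570 and 0.416 CPM at the low dose, without overlap, which came from 7, 4 and 6 counts against 12, 16 and 11. The log2 fold change of -1.28 ± 0.44 was not called (edgeR adjusted p = 0.0707), while a fit of only these 2 groups called it at the same value (edgeR adjusted p = 0.0413). Against the vehicle, MT1F at the high dose of Soshiho-tang (-1.16 ± 0.55, not called) was called without vehicle replicate 3 (-1.49) or without high-dose replicate 3 (-2.39).

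The sum of all MT1 genes and MT2A does not depend on how reads were divided within the family. It had 186, 202 and 202 CPM at the high dose of Yijin-tang, against 146, 146 and 132 CPM at the low dose, a log2 fold change of 0.45 ± 0.10 (edgeR adjusted p = 0.00168). For Soshiho-tang the sum was higher by 0.46 ± 0.12 on the log2 scale and for Schisandrae Fructus by 0.49 ± 0.10, both called. The Soshiho-tang call ended without replicate 2 of the high dose (0.40; edgeR adjusted p = 0.0704) or of the low dose (0.42; edgeR adjusted p = 0.0643). In Longan Arillus the sum (-0.19 ± 0.10) was not called. Without MT2A, the MT1 genes summed to a log2 fold change of -0.59 ± 0.12 for Longan Arillus and -0.27 ± 0.11 for Schisandrae Fructus, both called, and of -0.08 for Yijin-tang and 0.26 for Soshiho-tang, not called. The Schisandrae Fructus call of that sum ended without replicate 1 (-0.17) or 2 (-0.30) of the high dose or replicate 1 (-0.25) or 3 (-0.20) of the low dose.

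MT1L, an annotated pseudogene of the family outside the 9 genes, rose with MT2A in Schisandrae Fructus. It had 2.19, 2.27 and 2.69 CPM at the high dose, against 0.832, 0.921 and 1.16 CPM at the low dose, without overlap (log2 fold change 1.32 ± 0.21; edgeR adjusted p = 1.43e-06). It starts 7979 bases past the annotated end of MT2A on the same strand and shared no stretch of 50 bases with another family gene.

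SLC30A1, the exporter that lowers zinc in the cytosol, was lower at the high dose of Schisandrae Fructus. It had 40.0, 32.9 and 35.1 CPM, against 60.4, 59.0 and 57.3 CPM at the low dose. The groups did not overlap, and the log2 fold change was -0.69 ± 0.065 (n = 3 each; edgeR adjusted p = 5.96e-12). Against the vehicle (59.0, 64.8 and 68.1 CPM) it was -0.86 ± 0.07 and was called. SLC30A1 and MT1E fell at the dose at which MT2A rose.

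In Soshiho-tang at its high dose SLC30A1 had 67.3 and 74.1 CPM, against 58.9 and 58.8 CPM at the low dose, without overlap. The log2 fold change was 0.27 ± 0.08 (n = 2 each; edgeR adjusted p = 0.0113). The call ended without low-dose replicate 2 (0.27; edgeR adjusted p = 0.0546), low-dose replicate 3 (0.26; adjusted p = 0.0883) or high-dose replicate 3 (0.19; adjusted p = 0.217). Against the vehicle it was 0.12 ± 0.07 and was not called. In Longan Arillus at its high dose SLC30A1 had 49.3, 50.8 and 51.4 CPM, against 56.5, 57.8 and 61.6 CPM at the low dose, without overlap, and the value of -0.23 ± 0.06 was not called (edgeR adjusted p = 0.0692). With the length and GC offsets it was -0.21 and was called. DESeq2 also called it, at -0.23 (DESeq2 Wald test, adjusted p = 0.0316). Yijin-tang (-0.09), Liriopis seu Ophiopogonis Tuber (-0.04) and Zizyphi Semen (0.08) overlapped between high and low dose.

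SLC30A1 was below the vehicle in 17 of 18 comparisons and called lower in 9. Besides Schisandrae Fructus, the calls at the high dose were Longan Arillus (-0.38 ± 0.06), Yijin-tang (-0.265 ± 0.064) and Liriopis seu Ophiopogonis Tuber (-0.21 ± 0.06). At the medium dose they were Longan Arillus (-0.33), Zizyphi Semen (-0.28), Schisandrae Fructus (-0.23) and Yijin-tang (-0.21), and at the low dose Zizyphi Semen (-0.24). Of the 9 calls, 5 held whichever library was left out. The calls at the medium doses of Yijin-tang and Schisandrae Fructus and at the high dose of Liriopis seu Ophiopogonis Tuber ended without vehicle replicate 2 (-0.21 to -0.20) or 3 (-0.18 to -0.16). They also ended without Yijin-tang replicate 1 (-0.17) or 2 (-0.20), without any 1 of the Schisandrae Fructus replicates (-0.23, -0.22 and -0.23) and without any 1 of the Liriopis seu Ophiopogonis Tuber replicates (-0.25, -0.19 and -0.19). The call at the low dose of Zizyphi Semen ended without vehicle replicate 3 (-0.19) or its own replicate 2 (-0.20). Without vehicle replicate 1, SLC30A1 was also called lower for the low dose of Yijin-tang (-0.24) and the high dose of Zizyphi Semen (-0.22). The same omission brought calls for Liriopis seu Ophiopogonis Tuber at its medium (-0.24) and low (-0.23) doses. With length and GC offsets, 2 of the 9 calls were kept, the high doses of Schisandrae Fructus (-0.61) and Longan Arillus (-0.20), and SLC30A1 at the high dose of Soshiho-tang was called higher (0.28).

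MTF1, whose protein senses zinc, was not called by the edgeR fit of all groups at any dose against the low dose of the same extract (log2 fold changes from -0.11 to 0.22). At the high dose of Soshiho-tang it had 37.4 and 38.9 CPM, against 31.8 and 33.5 CPM at the low dose, without overlap (0.22 ± 0.12; edgeR adjusted p = 0.208), and a fit of only these 2 groups called it (0.21; edgeR adjusted p = 0.00706). With length and GC offsets MTF1 was called higher at the high doses of Soshiho-tang (0.25) and Schisandrae Fructus (0.23) against the low dose. MTF1 has a median annotated transcript length of 7972 bases, and SLC30A1 one of 5474.

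Against the vehicle (35.6, 39.0 and 42.7 CPM) MTF1 was lower in all 18 comparisons, low doses included, at log2 fold changes from -0.40 to -0.07, and was called in 10. The called values were -0.38 (Yijin-tang), -0.38 (Soshiho-tang), -0.31 (Liriopis seu Ophiopogonis Tuber), -0.35 (Schisandrae Fructus), -0.38 (Longan Arillus) and -0.30 (Zizyphi Semen) at the medium dose, -0.31 (Longan Arillus) and -0.30 (Zizyphi Semen) at the high dose, and -0.37 (Longan Arillus) and -0.40 (Zizyphi Semen) at the low dose. Without vehicle replicate 3, which had the highest MTF1 of the vehicle libraries, 9 of these 10 calls ended (values from -0.31 to -0.23), and without vehicle replicate 2, 7 ended (-0.37 to -0.29). Among the medium doses the call also ended without Yijin-tang replicate 1 (-0.34), Soshiho-tang replicate 2 (-0.39) or 3 (-0.35), Liriopis seu Ophiopogonis Tuber replicate 1 (-0.30) or 2 (-0.27), Schisandrae Fructus replicate 2 (-0.34) or 3 (-0.32), Longan Arillus replicate 3 (-0.20) and each Zizyphi Semen replicate (-0.31, -0.26 and -0.28). Among the other doses it ended without Longan Arillus high-dose replicate 2 (-0.32) or 3 (-0.20), Longan Arillus low-dose replicate 1 (-0.35) or 3 (-0.32) and each high-dose Zizyphi Semen replicate (-0.29, -0.30 and -0.26). The call at the low dose of Zizyphi Semen held whichever library was left out. Without vehicle replicate 1, MTF1 was also called lower for the high (-0.32) and low (-0.41) doses of Yijin-tang. The same omission brought a call for the low dose of Liriopis seu Ophiopogonis Tuber (-0.35). Yijin-tang at its high dose was also called without its own replicate 1 (-0.31). With length and GC offsets 0 of the 10 calls were kept (edgeR), and MTF1 was called higher than the vehicle at the high doses of Soshiho-tang (0.19) and Schisandrae Fructus (0.17), against -0.07 and -0.12 without the offsets.

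**Figure D4:**
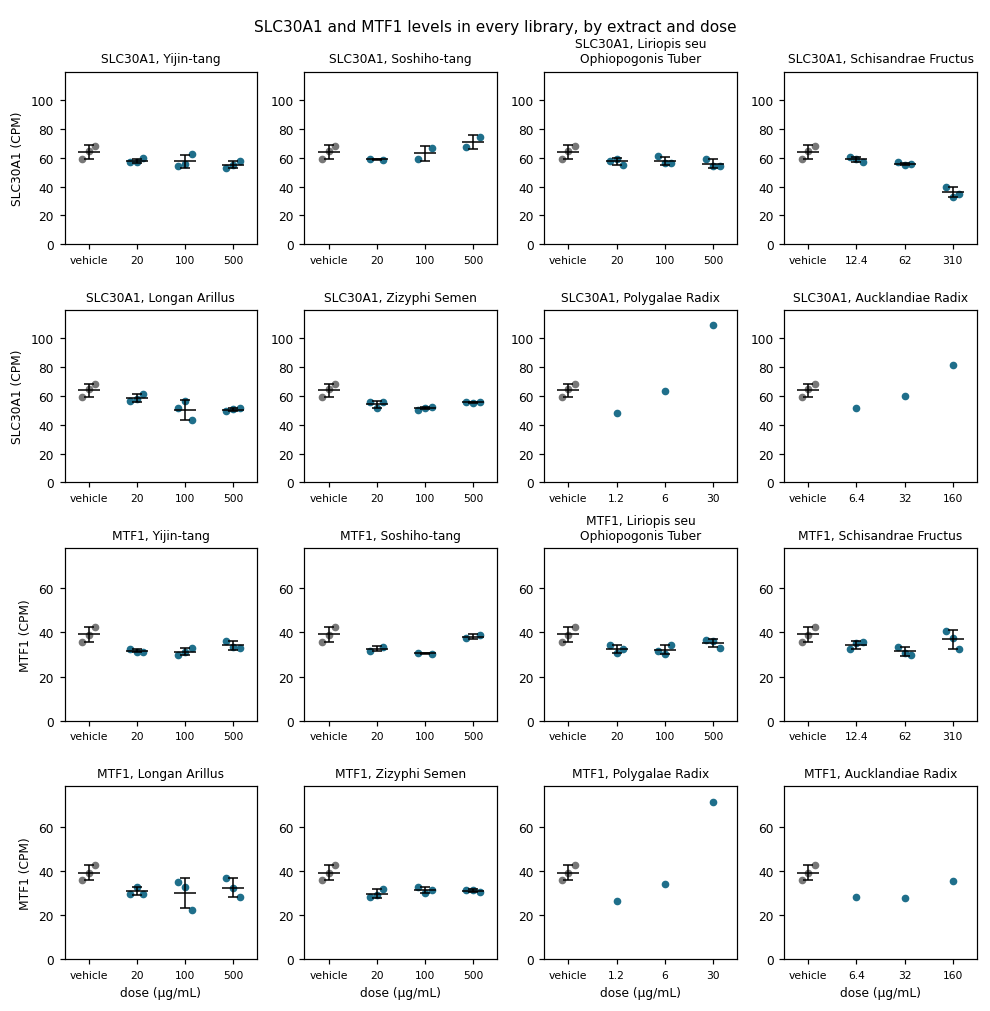
SLC30A1 (upper 8 panels) and MTF1 (lower 8 panels) in CPM on a linear axis from 0, in every library, by extract, with the vehicle first and doses in µg/mL from low to high; black bars are means ± SD where a group has 2 or 3 libraries. SLC30A1 is lowest at 310 µg/mL of Schisandrae Fructus (32.9 to 40.0 CPM), and both genes are highest at 30 µg/mL of Polygalae Radix (109 and 71.1 CPM).

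The dose effect was compared directly between extracts that shared doses and a library set, over 2 pairs. The difference of Soshiho-tang minus Yijin-tang in high minus low dose was called for 1 of the 6 members, where 9.4% of all genes were called. That member was SLC30A1, at 0.36 ± 0.10 on the log2 scale (edgeR adjusted p = 0.0148), with 67.3 and 74.1 CPM against 58.9 and 58.8 CPM in Soshiho-tang and 52.8, 54.8 and 57.9 CPM against 57.3, 56.9 and 59.5 CPM in Yijin-tang. The call ended without Soshiho-tang replicate 3 of the high dose (0.28; adjusted p = 0.157, edgeR) or of the low dose (0.35; adjusted p = 0.0717, edgeR). For MT2A the difference was -0.03, with a 95% interval of -0.35 to 0.30.

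The difference of Longan Arillus minus Zizyphi Semen in high minus low dose was also called for 1 member, SLC30A1, where 3.97% of all genes were called. It was -0.31 ± 0.09 (edgeR adjusted p = 0.0404) and ended when any 1 of 10 of the 12 libraries was left out (values from -0.32 to -0.28; edgeR adjusted p up to 0.116). These 10 were all libraries of both extracts' high doses and replicates 2 and 3 of both low doses. MT1E differed by -0.55 ± 0.22 and MT1X by -0.32 ± 0.18, neither called (edgeR adjusted p = 0.177 and 0.41).

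Aucklandiae Radix, with 1 library per dose and so no test, had the highest MT2A, MT1E and MT1X levels of the series at its high dose. MT2A was at 157 CPM (95% Poisson interval 152 to 162) at 6.4 µg/mL, 241 CPM (234 to 247) at 32 µg/mL and 461 CPM (453 to 469.8) at 160 µg/mL. MT1E was at 8.58, 12.2 and 36.3 CPM and MT1X at 7.97, 11.7 and 33.1 CPM at the same doses. All 3 genes were higher at each step of dose. The intervals cover counting error only, since PCR copies are not separate molecules. SLC30A1 was at 52.0, 59.96 and 81.7 CPM and MTF1 at 28.2, 27.6 and 35.4 CPM.

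High over low dose of Aucklandiae Radix, 3 of the 9 members lay past a rule of at least 2-fold and at least 10 CPM in either library. Of genes above that level, 7.04% did. Among the members only MT2A, MT1E, MT1X, SLC30A1 and MTF1 reached that level, so the others could not pass. Library scaling included, MT2A was 2.77-fold, MT1E 3.96-fold and MT1X 3.88-fold higher at the high dose. SLC30A1 was 1.48-fold higher and MTF1 1.18-fold. Against the vehicle mean the same 3 members were past the rule (12.8% of genes), at 3.93-fold, 5.29-fold and 4.71-fold. The medium dose had 0 members past the rule against the low dose (0.142% of genes) and 1, MT2A at 2.12-fold, against the vehicle (2.61%). The low dose had 0 past it against the vehicle (0.397%). MT1L was at 0.854, 1.12 and 2.10 CPM from low to high dose.

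Polygalae Radix, also with 1 library per dose, had the highest SLC30A1 and MTF1 in CPM of the series. SLC30A1 was at 48.3 CPM (95% Poisson interval 45.4 to 51.3) at 1.2 µg/mL, 63.4 CPM (60.5 to 66.5) at 6 µg/mL and 109 CPM (105 to 113) at 30 µg/mL. MTF1 was at 26.4, 34.0 and 71.1 CPM. MT2A went the other way between the upper doses, at 170.0, 175 and 110.4 CPM, and MT1E was at 9.84, 13.8 and 8.18 CPM.

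High over low dose of Polygalae Radix, 1 of the 9 members was past the 2-fold rule, MTF1 at 2.14-fold. Of genes of at least 10 CPM, 22.3% were past it. Only MT2A, SLC30A1 and MTF1 reached 10 CPM in either library, so the other members could not pass. SLC30A1 was 1.80-fold higher, and MT2A was 0.518 of its low-dose level. The scaling factor of this library was 1.231, while those of the other 59 libraries lay between 0.939 and 1.042. Scaled to total counts alone, an alternative added after the data had been seen, 2 members were past the rule, SLC30A1 and MTF1, and the median log2 difference of all genes of at least 10 CPM was 0.30 in place of -0.03. Against the vehicle 0 members were past the rule at 30 µg/mL (19.4% of genes), 0 at 6 µg/mL (1.1%) and 0 at 1.2 µg/mL (1.37%), and 0 were past it between 6 and 1.2 µg/mL (0.0704%). At the medium dose MT1E stood at 2.00-fold of the vehicle, just under the limit, and was past it with a prior count of 0.5 or with total counts.

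Over the 25 groups, the order of MT2A levels began with the high and medium doses of Aucklandiae Radix, followed by the high dose of Yijin-tang (179.7 ± 9.4 CPM; SD), the medium and low doses of Polygalae Radix and the high doses of Schisandrae Fructus (169 ± 19) and Soshiho-tang (166 ± 11). The low dose of Aucklandiae Radix and the medium dose of Yijin-tang (146 ± 7.5) came next. From the medium dose of Longan Arillus (135 ± 25) down to the vehicle (113 ± 8.7), neighbouring means differed by less than their SDs, and the high dose of Polygalae Radix came last. SLC30A1 had another order, with the high doses of Polygalae Radix, Aucklandiae Radix and Soshiho-tang (70.7 ± 4.8 CPM) at the top, the vehicle next (64.0 ± 4.6) and the high dose of Schisandrae Fructus last (36.01 ± 3.6), and the means of the other replicated groups lay between 50.4 and 63.2 CPM. Across the 25 group means of log2 CPM, Pearson's r was 0.899 between MT1E and MT1X, 0.894 between MT2A and MT1X, 0.765 between MT2A and MT1E and 0.099 between MT2A and SLC30A1. Without the high doses of the extracts of 1 library these were 0.785, 0.691, 0.463 and -0.127. The groups share the vehicle, library sets and sequencing, and these values are a description.

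Among 12070 genes that reached 5 CPM in a group mean, the 5 whose pattern was most like MT2A over the 25 groups were MRPS24 (r = 0.949), ATP5MK (0.944), BOLA2B (0.936), DHRS7 (0.931) and TATDN1 (0.929). All but DHRS7 have a median transcript length of under 1000 bases, as MT2A does. The 5 most like SLC30A1 were RP2 (0.903), FZD8 (0.898), SNAI2 (0.897), TGFBR3 (0.891) and GMFB (0.888), whose median transcript lengths lie between 2010 and 4125 bases. Without the high doses of the extracts of 1 library, r was lower for all of these genes. In the order given it was 0.86, 0.862, 0.85, 0.794 and 0.809 for those like MT2A. For those like SLC30A1 it was 0.835, 0.8, 0.801, 0.826 and 0.791.

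Other zinc transporters were counted at the high doses, where 45.9% of all genes were called in Schisandrae Fructus, 18.6% in Soshiho-tang, 7% in Yijin-tang, 5.78% in Zizyphi Semen and 0.936% in Longan Arillus. These shares are the background for every list count that follows, and no list was tested against them. Schisandrae Fructus at its high dose, against its low dose, had 4 of 11 tested zinc importers of the SLC39A family higher and 3 lower, with a median log2 fold change of 0.09 where all genes had 0. SLC39A10, a plasma membrane importer, rose by 0.89 ± 0.08 and SLC39A7, which releases zinc from the endoplasmic reticulum, by 0.72 ± 0.05, while SLC39A8, an importer of zinc and manganese, was at -0.76 ± 0.08. SLC39A14, an importer of zinc, iron and manganese, rose at the high doses of Soshiho-tang (0.62 ± 0.08), Yijin-tang (0.25 ± 0.07) and Zizyphi Semen (0.25 ± 0.07) and fell at that of Longan Arillus (-0.29 ± 0.07). In Soshiho-tang 2 importers rose and 1 fell (median 0.05), in Yijin-tang and Zizyphi Semen 2 rose and 0 fell (0.05 and 0.10) and in Longan Arillus 0 rose and 1 fell (-0.03). Of 6 tested zinc exporters other than SLC30A1, 2 rose in Soshiho-tang, SLC30A7 (0.31 ± 0.07) and SLC30A4 (0.34 ± 0.10), with a median of 0.16. In Schisandrae Fructus 2 rose and 1 fell, SLC30A5 at 0.15, SLC30A7 at 0.13 and SLC30A6 at -0.23, with a median of 0.06.

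Some of these transporter calls ended when 1 library was left out. For SLC39A14 these were high-dose replicate 2 (0.24) or low-dose replicate 3 (0.22) of Yijin-tang, high-dose replicate 2 (0.22) or low-dose replicate 1 or 3 (0.24 each) of Zizyphi Semen, and high-dose replicate 2 (-0.29) or 3 (-0.24) or low-dose replicate 1 or 2 (-0.28 each) of Longan Arillus. For SLC30A4 they were high-dose replicate 3 (0.25) or low-dose replicate 2 (0.29) of Soshiho-tang. The rise of SLC39A13 in Soshiho-tang (0.26) lost its call without high-dose replicate 2 (0.20) or low-dose replicate 2 or 3 (0.26 each). The fall of SLC39A8 there (-0.33) lost it without high-dose replicate 3 or low-dose replicate 2 (-0.27 each). In Yijin-tang the rise of SLC39A8 (0.28) lost it without high-dose replicate 3 (0.26). In Schisandrae Fructus SLC30A5 lost its call without high-dose replicate 1 (0.08) or low-dose replicate 3 (0.12), and SLC30A7 without high-dose replicate 1 (0.10) or 3 (0.14) or low-dose replicate 1 (0.12) or 3 (0.13). SLC39A14 in Soshiho-tang and SLC39A7, SLC39A8, SLC39A10 and SLC30A6 in Schisandrae Fructus kept their calls whichever library was left out.

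Copper genes were counted in the same way. In Schisandrae Fructus 5 of 11 tested rose and 3 fell (median 0.12; 45.9% of all genes called), among them the copper importer SLC31A1 (0.79 ± 0.05), the metalloreductase STEAP2 (0.45 ± 0.08) and STEAP3 (-0.69 ± 0.04), another metalloreductase. In Soshiho-tang 3 rose and 1 fell (median 0.02; 18.6% of all genes called), with SLC31A1 at 0.34 ± 0.06 and SLC31A2 at 0.53 ± 0.12, and in Yijin-tang 1 rose and 1 fell (median 0.04), with STEAP2 at 0.27 and STEAP3 at -0.33. The STEAP2 call in Yijin-tang ended without high-dose replicate 1, 2 or 3 (0.27, 0.27 and 0.28) or low-dose replicate 2 or 3 (0.26 and 0.23).

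Genes of oxidative and protein stress, which share inducers with metallothioneins, were counted beside them. In Soshiho-tang 5 of 10 tested rose and 0 fell (median 0.54; 18.6% of all genes called), with HMOX1, the haem oxygenase, at 3.09 ± 0.08, SLC7A11, the cystine importer, at 1.52 ± 0.13 and TXNRD1, a thioredoxin reductase, at 0.85 ± 0.06. In Schisandrae Fructus 8 rose and 1 fell (median 0.40; 45.9% of all genes called), with the lowest p in SRXN1 (0.61), TXNRD1 (0.63) and HSPA1A (0.50). In Yijin-tang 1 rose and 1 fell (median 0.09), TXNRD1 at 0.22 and DNAJB1 at -0.24, and in Zizyphi Semen 1 rose, HMOX1 at 0.24 (median 0.09), a call that ended without high-dose replicate 2 (0.21) or low-dose replicate 2 or 3 (0.21 and 0.22). The Aucklandiae Radix library at 160 µg/mL had HMOX1 at 1330 CPM, against 60.8 CPM at 6.4 µg/mL, and SRXN1 at 251 against 91.3 CPM, while HSPA1A (51.6 against 106 CPM) and HSPA1B (36.5 against 74.3 CPM) were lower.

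In Schisandrae Fructus 0 of 9 tested glucocorticoid targets rose and 3 fell (median -0.10, with 45.9% of all genes called). Those that fell were CRISPLD2 at -1.04 ± 0.06, NR3C1, the glucocorticoid receptor, at -0.39 ± 0.07 and NFKBIA at -0.23. The NFKBIA call ended when any 1 library of the high or low dose was left out (-0.24 to -0.21). In Yijin-tang 2 rose and 1 fell (median -0.05), with NFKBIA at 1.02 ± 0.09, PER1 at 0.29 and CRISPLD2 at -0.50, of which the PER1 call ended without high-dose replicate 1 or 2 (0.22 and 0.27) or low-dose replicate 2 or 3 (0.26 each). In Soshiho-tang 2 rose and 2 fell (median 0), with NFKBIA at 0.77 and CRISPLD2 at -0.97.  In Longan Arillus SLC39A14 was the only called gene of the 5 lists, in Zizyphi Semen the calls were SLC39A14, SLC39A9 (0.20 ± 0.06, ended by leaving out any 1 library but high-dose replicate 3, at 0.16 to 0.21) and HMOX1, and Liriopis seu Ophiopogonis Tuber had 0 calls among all genes.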

How the data were processed

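Bulk mRNA sequencing measured 60 libraries of SW1783 cells in 25 groups. Per the submitters' processing notes, the authors used FastQC 0.11.9, Trim Galore 0.6.5, STAR 2.7.3a and RSEM 1.3.3 with hg38, and they deposited 1 table of expected counts per gene. No source used here gives the annotation release or the strand setting. The design text says that samples of low RNA concentration were left out, and it names a positive control that is not analysed here. Of the values, 10.86% were not whole and were rounded before testing.

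The 54 libraries in 19 groups of 2 or 3 entered 1 fit in edgeR 4.0.16 (R 4.3.3), a quasi-likelihood test with TMM scaling, a filter on low counts (17851 genes kept) and Benjamini-Hochberg adjustment over all genes tested. Library totals of 18.73 to 35.52 M set the precision, and the prior degrees of freedom were 6.31. Extracts of 1 library per dose had no test: their log2 CPM used a prior count of 2, and a gene was past the rule at 2-fold or more with at least 10 CPM. CPM per library is the count over the column's total. Named genes were all 9 members in every group, plus up to 3 called genes of lowest p per gene list and the 5 genes most like MT2A and SLC30A1. MT1L is on the list of other metallothioneins. The members and lists were chosen with earlier results of these data known.

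Alternatives were DESeq2 1.42.0, its size factors, no filter, a fit of only the 2 groups compared, each library left out, a replicate block, other prior counts and, added later, length and GC offsets, the MT1 sum and total-count scaling. No 2 libraries of a group agreed within counting noise. The tests were checked on simulated data. Motifs and coding sequences were read from RefSeq promoters and GENCODE 29 transcripts.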

Additional observations from a re-analysis of the deposited data

Results flagged for a closer look

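The change of SLC30A1 from low to high dose differed between Soshiho-tang and Yijin-tang by 0.36 ± 0.10 on the log2 scale (Soshiho-tang minus Yijin-tang; edgeR adjusted p = 0.0148), by a direct test of the difference within 1 library set. Both Soshiho-tang high-dose libraries lay above both of its low-dose libraries, and the Yijin-tang groups overlapped. The change of SLC30A1 differed between Longan Arillus and Zizyphi Semen by -0.31 ± 0.09 (Longan Arillus minus Zizyphi Semen; edgeR adjusted p = 0.0404). All 3 Longan Arillus high-dose libraries lay below its low-dose libraries, and the Zizyphi Semen groups overlapped. Neither call held whichever library was left out: the lowest and highest values were 0.28 and 0.43 for the decoctions and -0.33 and -0.28 for the herbs.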

How the results depend on the processing

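Fitting only the 2 groups compared gave these counts of members called: against the low dose, 2 for Yijin-tang, 4 for Soshiho-tang and 0 for Longan Arillus, each at its high dose. Against the vehicle that fit gave 4 (Yijin-tang high), 2 (Yijin-tang low), 1 (Soshiho-tang low), 2 (Liriopis seu Ophiopogonis Tuber medium), 0 (Longan Arillus medium) and 2 (Zizyphi Semen high), and the family sum was 0.29 for Longan Arillus medium, not called, and 0.20 for Zizyphi Semen high, called. Without the filter, where more genes were tested, the counts against the vehicle were 4 and 2 (Yijin-tang high and low), 1 (Soshiho-tang low), 0, 2 and 1 (Liriopis seu Ophiopogonis Tuber high, medium and low), 1 (Schisandrae Fructus medium) and 2 and 5 (Zizyphi Semen high and low). The differences between extracts then had 2 (decoctions) and 0 (herbs) calls, and the family sum was called for Zizyphi Semen high (0.20) and low (0.22). DESeq2 gave 1 for the low doses of Yijin-tang and Liriopis seu Ophiopogonis Tuber against the vehicle, and its size factors gave 0 for Liriopis seu Ophiopogonis Tuber high.

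Length and GC offsets lowered counts against the vehicle to 1 (Yijin-tang high) and 0 (Liriopis seu Ophiopogonis Tuber high and medium, Zizyphi Semen high, medium and low, Longan Arillus medium and low, and the medium doses of Yijin-tang, Soshiho-tang and Schisandrae Fructus) and raised that of Soshiho-tang high to 4. The family sum was then 0.19 (Yijin-tang medium) and 0.12 (Longan Arillus medium), not called, and MTF1 turned to 0.19 (Soshiho-tang high) and 0.17 (Schisandrae Fructus high). The MT1 genes summed without MT2A gave -0.0795, 0.26, -0.27 and -0.59 for the high doses of Yijin-tang, Soshiho-tang, Schisandrae Fructus and Longan Arillus against the low dose. Against the vehicle they gave 0.18 and 0.27 (Yijin-tang high and medium), -0.13 (Schisandrae Fructus high), -0.40 and 0.27 (Longan Arillus high and medium) and 0.38 (Zizyphi Semen low). For Polygalae Radix total-count scaling gave 2 members past the rule (high against low) and 1 (medium against the vehicle, also 1 with a prior count of 0.5). The causes of these shifts were not tested.

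Same-numbered libraries of a library set deviated together (r over 0.1) in 10 of 123 pairs (median r 0.007). Differently numbered libraries of a set did in 16 of 240 pairs (median r -0.002), so the numbers were not taken as a pairing. With the replicate block, Liriopis seu Ophiopogonis Tuber high had 0 calls against the vehicle (SLC30A1 -0.21; adjusted p = 0.0505, edgeR), and MT1E at the low dose of Zizyphi Semen was not called (0.43; adjusted p = 0.0502, edgeR). A block within library sets brought a call for SLC30A1 at the high dose of Longan Arillus (-0.23; adjusted p = 0.0306, edgeR). The other 283 and 123 results, most of them not called in either fit, stayed on the same side of the threshold under these blocks.

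With each library left out in turn no called result changed sign, while some uncalled values did. The family sum lay between 0.40 and 0.53 for Soshiho-tang high against low and, against the vehicle, between 0.25 and 0.35 (Yijin-tang medium) and between 0.12 and 0.41 (Longan Arillus medium). The count of members called lay between 0 and 1 for Longan Arillus high against low, was 1 wherever it moved for Soshiho-tang high against low, and lay between 0 and 2 for the decoctions and 0 and 1 for the herbs compared. Against the vehicle the ranges were 0 to 3 and 0 to 2 (Yijin-tang medium and low), 0 to 1 (Soshiho-tang medium), 0 to 1, 0 to 2 and 0 to 2 (Liriopis seu Ophiopogonis Tuber high, medium and low), 0 to 2 (Schisandrae Fructus medium), 1 to 4 and 0 to 1 (Longan Arillus medium and low) and 0 to 2, 1 to 2 and 1 to 4 (Zizyphi Semen high, medium and low). Over all genes, the count of calls moved by more than 1.5 times in 16 of 30 comparisons with the fit of 2 groups, 15 of 32 without the filter, 7 of 32 with the offsets and 6 of 32 with DESeq2. With 1 library left out the count over all genes moved that far in 83 of 195 comparisons fitted, and with the block within library sets in 3 of 14. Depth limits MT1F, MT1G, MT1M and MT1A, which had few counts per library.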

Other observations

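The extracts of 1 library per dose differed in which partner genes stood past the 2-fold rule, described here as values of single libraries with no test. Of all genes of at least 10 CPM, 7.04% were past it for Aucklandiae Radix and 22.3% for Polygalae Radix, high over low dose. The list sizes given here and below include any genes under 10 CPM, which could not pass. The list medians cover only the listed genes of at least 10 CPM. High over low dose of Aucklandiae Radix, 2 of 10 oxidative and protein stress genes were past it higher and 2 lower (median log2 difference 0.83). Of 11 copper genes 2 were higher (median 0.52): SLC31A2, a copper transporter of endosomes, had 19.7 against 7.03 CPM, and COX17, a mitochondrial copper chaperone, had 14.6 against 6.42 CPM. Of 10 glucocorticoid targets 2 were lower (median -0.56), KLF9 with 17.7 against 67.8 CPM and CRISPLD2 with 21.3 against 70.7 CPM. Among 9 zinc exporters other than SLC30A1 and 14 importers, 0 were past it (medians 0.12 and 0.20).

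High over low dose of Polygalae Radix, 4 of the 10 stress genes were past the rule higher and 1 lower (median 0.22). TXNRD1 had 739.8 against 241 CPM, SLC7A11 249 against 88.2 CPM, SRXN1 242 against 93.9 CPM and HMOX1 182 against 64.1 CPM, while HSPA1A had 60.3 against 108 CPM. The CPM given here lack the library scaling that the rule used. Scaling included, TXNRD1 was at 2.45, SLC7A11 at 2.25, SRXN1 at 2.05, HMOX1 at 2.26 and HSPA1A at 0.445 of the low-dose level. Of the 11 copper genes 3 were lower (median -0.78), among them SOD1, the copper and zinc superoxide dismutase, with 45.4 against 116 CPM. Of the glucocorticoid targets 2 were higher and 1 lower (median 0.73), with KLF9 at 184 against 66.1 CPM and ERRFI1 at 243 against 61.8 CPM. Among the zinc exporters and importers 0 were past it (medians 0.42 and -0.34).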
